A study of Mus musculus with 24 samples.

Results

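The hearts of all mice that carried a cardiac specific OGT transgene were compared with the hearts of all mice that did not. The carriers were 12 whole hearts, 6 with OGT as the one transgene (OGT_TG) and 6 with a cardiac specific OGA transgene as well (OGT_TG_x_OGA_TG). The non-carriers were 12 whole hearts, 6 wild type (WT) and 6 with the OGA transgene alone (OGA_TG). These are all 24 hearts of the series, and they were assigned by the genotype in their labels, not by a measured value. Each genotype held 3 males and 3 females, all adult, untreated and of strain C57BL/6J. The age in weeks, the promoter that drives each transgene and the number of founder lines are not given in the sources used here. Polyadenylated RNA was sequenced as stranded libraries. The values are FPKM, fragments scaled to transcript length and to the mapped fragments of the library. The design gives the OGT difference in 2 backgrounds that share no heart, without OGA (OGT_TG minus WT) and with OGA (OGT_TG_x_OGA_TG minus OGA_TG). The main effect is the mean of both differences. Differences are given on the log2(FPKM + 1) scale, which understates changes of genes with low values.

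O-GlcNAc is a single sugar, N-acetylglucosamine, that is placed on serine and threonine residues of nuclear, cytoplasmic and mitochondrial proteins. OGT adds it from UDP-GlcNAc, the end product of the hexosamine pathway, and OGA removes it. In the heart the modification is found on contractile, calcium handling and mitochondrial proteins and on transcription factors, and it rises with glucose supply and with stress. Carriers of both transgenes express the enzyme that adds the sugar and the enzyme that removes it. The comparison thus sets the OGT transgene against its absence, both with and without extra OGA. The mouse gene Ogt is expressed in all hearts.

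The deposited values cover transcripts, so the sequences of interest are those next to the start sites of genes that moved together. Promoters ran from 250 bases before to 50 bases after a RefSeq start site on GRCm38.p6. They were matched to 9252 of 12018 tested genes by symbol and searched on both strands for 4 motifs, TNAAGGTCA (bound by ERR nuclear receptors), TGATGNAA (bound by C/EBP-ATF dimers), TGANTCA (AP-1) and ACATTCC (TEAD). Of the promoters of all tested genes, 2.22% held the C/EBP-ATF motif, against 3.1% of 484 promoters of genes that rose in both backgrounds and 2.89% of 415 that fell in both. The shares for the ERR motif were 0.65%, 0.62% and 0.72% in the same order. AP-1 gave 4.68%, 4.75% and 3.86%, and TEAD gave 2.58%, 2.27% and 2.17%. Shares in the genes that moved were thus within 1 percentage point of those of all tested genes for each of the 4 motifs. The base shares are themselves small, so this margin is wide, and no test was made. These shares count 1 promoter per gene. With any promoter of a gene the C/EBP-ATF shares were 2.78%, 3.72% and 3.37%. Of 6 gene lists searched, the integrated stress response list had 4 of 18 promoters with the C/EBP-ATF motif (22.22%), those of Asns, Nupr1, Atf3 and Trib3. Atf3 and Trib3 did not pass the test in the main effect. The ERR motif was in 1 of 31 promoters of complex I, 2 of 31 of complexes II to V and 0 of 23 of fatty acid genes. AP-1 was in 3 of 31 (9.68%) and 4 of 31 (12.9%) of the same complexes. For all other pairs of list and motif the number was 0 to 2. These 3 promoters are shown as examples of a match in a gene called in both backgrounds, and they were picked after their values were seen. They belong to asparagine synthetase (Asns, chr6:7693160-7693459, minus strand), the stress-induced Gadd45g (chr13:51846425-51846724, plus strand) and the complex I subunit Ndufb4 (chr16:37654319-37654618, minus strand). Each is written 5′ to 3′ along the gene, with the motif match in capitals, C/EBP-ATF in the first 2 and ERR in the last. In Gadd45g the match lies on the opposite strand. A match is not evidence of binding.
Asns: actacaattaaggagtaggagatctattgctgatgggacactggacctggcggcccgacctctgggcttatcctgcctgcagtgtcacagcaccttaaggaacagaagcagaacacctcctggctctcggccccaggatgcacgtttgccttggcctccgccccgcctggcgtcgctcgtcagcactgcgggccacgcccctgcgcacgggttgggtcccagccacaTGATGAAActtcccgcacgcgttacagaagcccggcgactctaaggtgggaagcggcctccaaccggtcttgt
Gadd45g: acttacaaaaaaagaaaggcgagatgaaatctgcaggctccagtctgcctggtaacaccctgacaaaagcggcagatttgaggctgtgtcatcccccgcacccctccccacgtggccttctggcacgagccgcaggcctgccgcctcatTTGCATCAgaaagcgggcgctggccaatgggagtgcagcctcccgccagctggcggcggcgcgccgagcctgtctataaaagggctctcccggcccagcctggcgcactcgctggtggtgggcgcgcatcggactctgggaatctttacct
Ndufb4: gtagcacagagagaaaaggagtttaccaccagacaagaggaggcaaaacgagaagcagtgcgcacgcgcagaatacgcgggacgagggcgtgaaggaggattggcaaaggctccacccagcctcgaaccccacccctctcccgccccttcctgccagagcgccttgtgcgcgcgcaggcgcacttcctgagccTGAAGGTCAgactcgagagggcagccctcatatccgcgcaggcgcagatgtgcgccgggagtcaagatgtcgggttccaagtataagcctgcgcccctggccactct

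The sum of FPKM per heart ran from 463500 to 513602, and 11421 to 12141 rows reached 1 FPKM. Relative depth, read from the steps between low values, spanned 1.56-fold between hearts, and its mean was 1.007 in carriers and 0.993 in non-carriers. Replicates 3 and 6 of OGT_TG stood apart on the first principal component (40.8% of the variance), at 52.7 and 52.9. The other OGT_TG hearts lay from 11.4 to 17.9, the OGT_TG_x_OGA_TG hearts from -1.215 to 4.58 and the non-carriers from -22.6 to -9.21. Several results that rest on these 2 hearts are therefore also given without them, a choice made after the values were seen. Markers of ventricular cardiomyocytes summed to 44359 FPKM or more in each heart, as a heart sample should show. The labels also carry numbers whose meaning they do not state. WT and OGT_TG hearts shared all of theirs. OGA_TG and OGT_TG_x_OGA_TG hearts shared none with any other genotype, so that in the difference with OGA, genotype and number cannot be told apart. The 2 numbers of OGA_TG also coincide with sex.

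The OGT row of the table, named in capitals as in the labels, read from 0.356 to 3.44 FPKM (median 0.539) in non-carriers and from 715 to 5261 FPKM (median 3338) in carriers. No heart went against its label. Means were 1748 ± 737 FPKM (SD, n = 6) in OGT_TG hearts and 4652 ± 449 FPKM (SD, n = 6) in OGT_TG_x_OGA_TG hearts. The row passed the expression minimum only through carriers, so these levels are a description with no test. The mouse gene Ogt (chrX:101640060-101684351) ran from 32.3 to 48.5 FPKM (median 38.9) in non-carriers and from 23.3 to 35.9 FPKM (median 29.3) in carriers, with overlap. It fell by 0.43 in the main effect (SE 0.05, adjusted p = 9.8e-07). The difference was -0.17 without OGA (adjusted p = 0.066) and -0.69 with OGA (adjusted p = 6.9e-07). Mgea5, the older symbol of the mouse gene Oga (chr19:45750259-45783837), ran from 20.8 to 48.6 FPKM (median 33.0) in non-carriers and from 38.5 to 63.9 FPKM (median 50.1) in carriers. It rose by 0.64 ± 0.08 (SE) (adjusted p = 2.2e-06), by 0.36 without OGA and 0.93 with OGA (interaction adjusted p = 0.038, and 0.094 without replicates 3 and 6 of OGT_TG, which are described above). Both mouse rows are uncertain, because fragments of a transgene may be assigned to the mouse gene and how the counting split them is not given in the sources used here. The OGA row was at 0.0222 FPKM or less in the 12 hearts without that transgene. In the other 12 it was 4122 ± 732 FPKM (SD, n = 6) in OGA_TG and 3462 ± 294 FPKM (SD, n = 6) in OGT_TG_x_OGA_TG hearts, a difference of -0.24 (adjusted p = 0.038).

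OGT carriers differed widely from non-carriers. Of 12020 rows tested, 3060 were higher in carriers (25.5%) and 1944 lower (16.2%) at a Benjamini-Hochberg adjusted p under 0.05 in limma, 41.6% in all. Without OGA, 3029 rows were higher (25.2%) and 1470 lower (12.2%), 37.4% in all. With OGA, 1001 were higher (8.33%) and 1174 lower (9.77%), 18.1% in all. The same direction was called in the main effect and in both backgrounds for 1199 rows (9.98%), of which 652 were higher (5.42%) and 547 lower (4.55%). They make up 26.65% of the rows called without OGA and 55.13% of those called with OGA. Another 42 rows were called in both backgrounds with opposite signs. With the label numbers described above as a replicate block, 752 rows were called in the same direction in both backgrounds. Of these, 706 were among the 1199. The 2 simple differences had Pearson's r = 0.603 and Spearman's rho = 0.546 across 12018 genes, which share hearts and are not independent. The sign was the same for 68.75% of rows. Among the 652 rows that rose in both backgrounds the median difference was 0.451 without OGA and 0.387 with OGA, against 0.065 and 0.013 over all tested rows. Among the 547 that fell the medians were -0.384 and -0.389. The difference was larger without OGA for 712 of the 1199 rows. In 325 of them (2.7% of tested rows) the 12 carrier hearts also lay beyond all 12 non-carrier hearts, 141 above (1.17%) and 184 below (1.53%). Over all tested rows, called or not, 159 lay above (1.32%) and 201 below (1.67%).

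**Figure D1:**
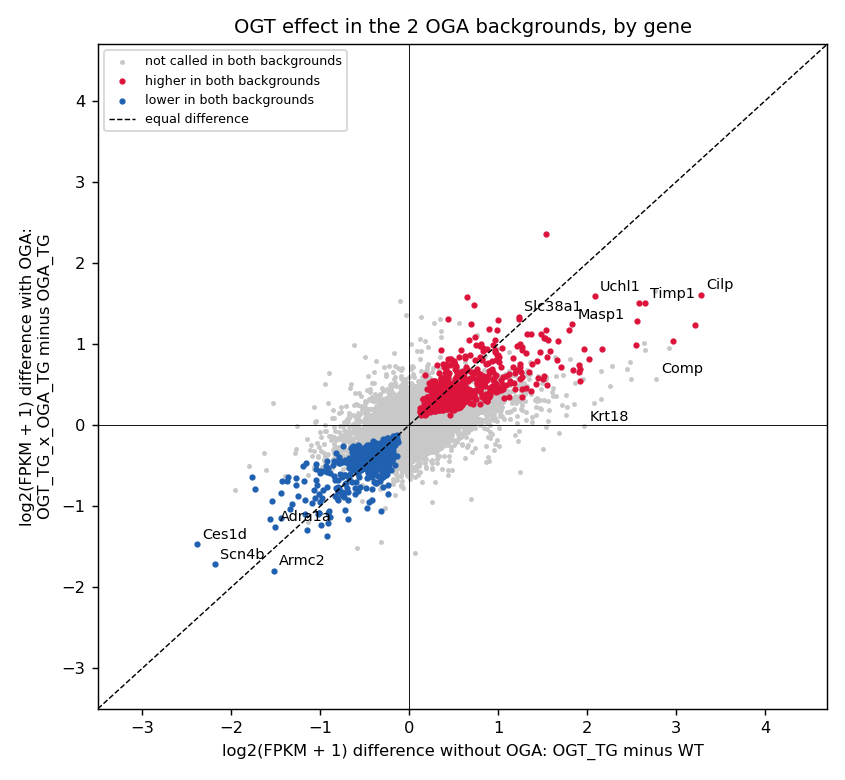
OGT difference with OGA (y axis) against that without OGA (x axis) for each tested gene, both on the log2(FPKM + 1) scale, with genes called in both backgrounds in red (higher) and blue (lower) and others in grey. Red points lie in the upper right quadrant and blue points in the lower left, on both sides of the dashed line of equal difference. The OGT row, at 9.40 and 11.53, and the OGA row were left out of the plot.

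The balance of rises and falls depends on the scaling. Higher rows were 61.2% of main effect calls as deposited, 71.2% (3667 against 1485) after scaling to an equal sum of FPKM, 51.4% (2549 against 2410) with median-of-ratios factors and 45.7% (2169 against 2578) after quantile normalization. For calls in both backgrounds the same shares were 54.4%, 66.9%, 46.4% and 42.7%. Without replicates 3 and 6 of OGT_TG, 888 rows rose and 548 fell in both backgrounds, and 969 of these were among the 1199.

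Cilp (chr9:65265180-65280605), a cartilage-type matrix protein, ran from 4.37 to 5.72 FPKM (median 4.98) in non-carriers and from 11.7 to 139 FPKM (median 27.4) in carriers. The lowest carrier was above the highest non-carrier, and the 2 highest hearts were replicates 3 and 6 of OGT_TG. The rise was 2.44 ± 0.19 (SE) in the main effect (adjusted p = 1.1e-09), 3.28 without OGA and 1.61 with OGA. Timp1 (chrX:20870166-20874735), a tissue inhibitor of matrix metalloproteases, ran from 1.06 to 3.80 FPKM (median 2.22) in non-carriers and from 4.55 to 52.2 FPKM (median 10.7) in carriers. The groups did not overlap, and the rise was 2.07 ± 0.22 (SE) (adjusted p = 2.3e-07). Without the 2 hearts that stood apart it was 1.76. Adamtsl2, a secreted protein of microfibrils, rose by 2.04 ± 0.28 (SE), and Wisp2, a CCN-family matricellular protein, by 2.22 ± 0.30 (SE). Mfap4, which binds elastic microfibrils, rose by 1.93 ± 0.21 (SE). Without the 2 hearts that stood apart the rises were 1.63 for Adamtsl2, 1.79 for Wisp2 and 1.615 for Mfap4. In these 3 genes the carrier with the highest value was an OGT_TG heart, at 78.0 FPKM for Adamtsl2, 138 FPKM for Wisp2 and 191 FPKM for Mfap4, and the values spread widely within OGT_TG.

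Uchl1 (chr5:66676091-66687234), a deubiquitinating enzyme best known from neurons, ran from 3.71 to 7.10 FPKM (median 5.35) in non-carriers and from 14.3 to 70.0 FPKM (median 17.7) in carriers. Its difference was 2.08 without OGA and 1.59 with OGA. Without replicates 3 and 6 of OGT_TG the difference without OGA was 1.55. Masp1 (chr16:23449417-23520815), a protease of the lectin pathway of complement, ran from 1.95 to 3.42 FPKM (median 2.85) in non-carriers and from 6.07 to 16.9 FPKM (median 9.84) in carriers. It rose by 1.54 ± 0.06 (SE) (adjusted p = 3.2e-14) with no overlap, and more without OGA (1.83) than with it (1.24; interaction adjusted p = 0.009). Slc38a1 (chr15:96571418-96642913), a glutamine transporter, ran from 2.74 to 5.12 FPKM (median 4.11) in non-carriers and from 7.99 to 15.1 FPKM (median 10.8) in carriers. Its rise was 1.23 without OGA and 1.34 with OGA, a difference that did not pass the test (interaction adjusted p = 0.62). Sdc4, the heparan sulphate proteoglycan syndecan 4, ran from 6.64 to 12.1 FPKM (median 8.47) in non-carriers and from 17.4 to 27.5 FPKM (median 22.3) in carriers, and rose by 1.22 ± 0.07 (SE) (adjusted p = 6.0e-12). Cela1, an elastase, was from 0 to 0.416 FPKM (median 0.131) in non-carriers and from 1.20 to 4.04 FPKM (median 2.21) in carriers. It was thus near the bottom of the scale in each non-carrier and passed the expression minimum only through carriers. The levels of Cela1 are therefore a description with no test. Phlda3, an Akt-binding target of p53, rose by 1.30 ± 0.12 (SE), and the coiled-coil gene Ccdc68 by 1.24 ± 0.09 (SE). All 12 genes of this set had higher values in each of the 12 carriers than in any non-carrier, a property that the rule for naming them required.

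**Figure D2:**
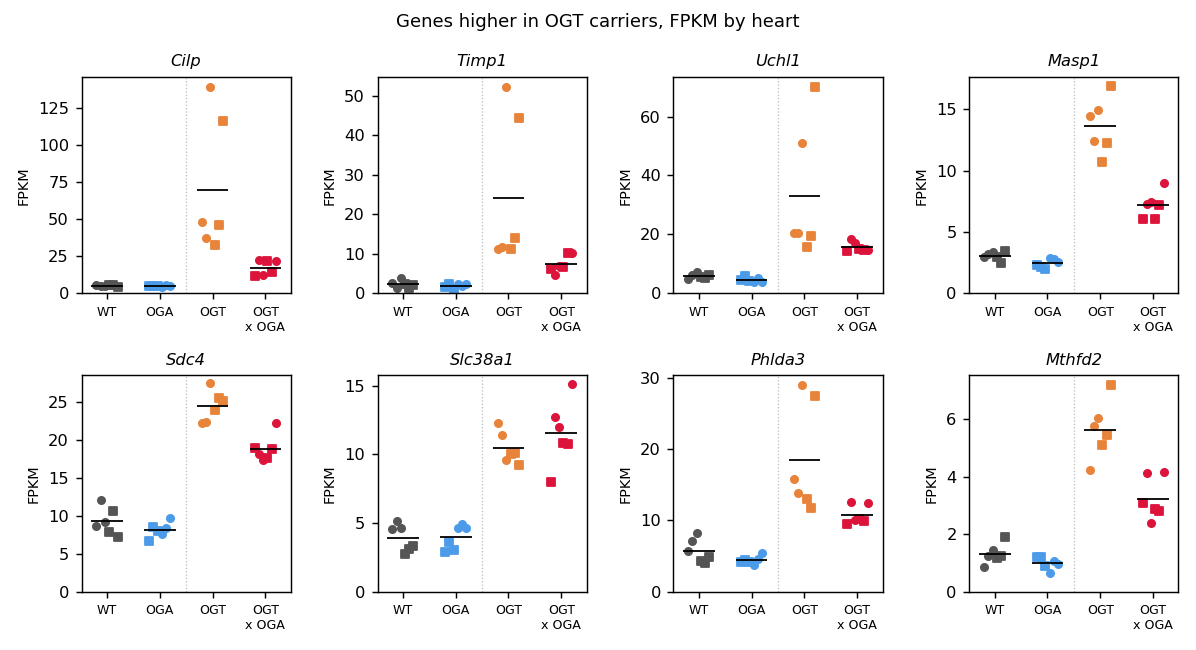
FPKM of 8 genes that rose in both backgrounds, one point per heart by genotype, circles for females and squares for males, with lines at the group means. In each panel the 12 hearts right of the dotted line (OGT carriers) lie above the 12 left of it. The rule for naming these genes, Mthfd2 apart, required this. For Cilp, Timp1, Uchl1 and Phlda3 the 2 highest points are replicates 3 and 6 of OGT_TG.

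Matrix genes were higher in carriers across nearly the whole list. The members of this and the following lists were chosen with earlier results of these data known. Their counts are therefore a description and no independent support. In the main effect 25.5% of all tested rows were called higher and 16.2% lower. Each main effect count of a list is to be read beside these shares. Of 42 tested members of the matrix and fibrosis list, 40 were higher and none lower in the main effect, with a median of 0.845 against 0.04 over all tested rows. The median was 1.281 without OGA and 0.528 with OGA, and 11 members had a called interaction. Without replicates 3 and 6 of OGT_TG the median without OGA was 0.646. In both backgrounds 8 members were called higher with all hearts (23 without replicates 3 and 6 of OGT_TG) and none lower. With the label numbers, whose meaning is not stated, as a replicate block, 3 members were called higher. Over all tested rows 376 were then higher in both. In the main fit the 8 included Cilp, Timp1 and Wisp2. The others of the 8 were Thbs4, Col8a1, Bgn, Tgfb3 and Timp2. Thbs4, thrombospondin 4, ran from 2.46 to 3.72 FPKM (median 3.10) in non-carriers and from 5.15 to 101 FPKM (median 13.2) in carriers. Bgn, the proteoglycan biglycan, ran from 116 to 169 FPKM (median 142) in non-carriers and from 208 to 1337 FPKM (median 311) in carriers. Neither gene overlapped between the groups, and both rose more without OGA (interaction adjusted p = 0.011 and 0.032). The TGF-beta ligand Tgfb3 rose by 1.35 without OGA and 0.65 with OGA. The fibrillar collagen Col1a1 was called without OGA (1.24) and had a difference of 0.71 with OGA (adjusted p = 0.2). Postn, the matricellular protein periostin, differed by 2.48 and by 0.78 (adjusted p = 0.12).

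Fibroblast markers moved beside the matrix genes. Of 14 tested members, 13 were higher in the main effect (median 0.595) and 7 in both backgrounds, with none lower. The 7 were Mfap4, Meox1, Mfap5, Pi16, Gsn, Dpt and Lamc1. With the replicate block 3 members were higher in both backgrounds. Meox1, a homeobox transcription factor, ran from 5.51 to 8.37 FPKM (median 7.21) in non-carriers and from 10.6 to 74.8 FPKM (median 18.3) in carriers without overlap. Gsn, the actin-severing gelsolin, ran from 493 to 699 FPKM (median 569) in non-carriers and from 633 to 1221 FPKM (median 840.4) in carriers, which overlap. The summed level of the fibroblast list was 1132 to 1381 FPKM in the 12 non-carriers, 1985 to 3109 FPKM in OGT_TG and 1358 to 1731 FPKM in OGT_TG_x_OGA_TG hearts. In RNA of whole hearts more cells of a type and more RNA per cell cannot be told apart, and the part of this shift in the matrix result was not tested. Endothelial markers had 1 member higher and 1 lower of 14 tested. Their summed level was 1231 to 1619 FPKM in non-carriers and 1099.5 to 1595 FPKM in carriers. Smooth muscle and pericyte markers had 5 higher and 3 lower of 13, against 25.5% and 16.2% of all tested rows.

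Interferon-response and inflammation genes were also higher. Of 22 tested members of the interferon and antigen presentation list, 17 were higher in the main effect (median 0.349). In both backgrounds 6 were higher, namely Isg15, Irf7, Ifit1, Oasl2, Oas1a and B2m, and 2 with the replicate block. Irf7, the transcription factor that amplifies the interferon response, ran from 4.08 to 11.9 FPKM (median 5.64) in non-carriers and from 8.43 to 17.1 FPKM (median 11.7) in carriers. Isg15, a ubiquitin-like interferon target, ran from 3.31 to 10.6 FPKM (median 5.61) in non-carriers and from 7.46 to 14.9 FPKM (median 10.4) in carriers. The groups overlapped in both genes, with WT replicate 3 the highest non-carrier for Irf7. B2m, the shared light chain of class I molecules, rose by 0.63 and 0.35. Of 28 tested inflammation and complement genes, 24 were higher in the main effect and 3 in both backgrounds (1 with the replicate block), and none was lower. Serping1, the inhibitor of complement C1, ran from 63.2 to 75.2 FPKM (median 69.0) in non-carriers and from 81.2 to 210.0 FPKM (median 122) in carriers. It rose by 1.19 without OGA and 0.44 with OGA (interaction adjusted p = 0.002). Cfb, complement factor B, and Socs3, a feedback inhibitor of cytokine signalling, were the others, and Socs3 was not called without OGA once replicates 3 and 6 of OGT_TG were left out (adjusted p = 0.35). Of 19 macrophage markers, 13 were higher in the main effect and none was called with OGA. Their summed level was 199 to 261 FPKM in non-carriers, 284 to 690 FPKM in OGT_TG and 229 to 329 FPKM in OGT_TG_x_OGA_TG hearts, and the part of macrophage RNA in the inflammation result was not tested. Lymphocyte and neutrophil markers summed to 4.05 to 15.8 FPKM in non-carriers, 9.84 to 31.9 FPKM in OGT_TG and 1.81 to 11.03 FPKM in OGT_TG_x_OGA_TG hearts. Of 5 tested, 2 were called higher without OGA, S100a9 (0.95), a calcium-binding protein of neutrophils, and Csf3r (0.49), the receptor of G-CSF. The T cell markers Cd3e and Cd8a, at most 0.463 and 0.222 FPKM, were not tested.

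Of 20 tested genes of the integrated stress response and serine synthesis, 12 were higher and 2 lower in the main effect (median 0.325), with 5 higher and 2 lower in both backgrounds. Mthfd2, a mitochondrial folate enzyme, ran from 0.662 to 1.91 FPKM (median 1.19) in non-carriers and from 2.40 to 7.19 FPKM (median 4.19) in carriers. No carrier overlapped with a non-carrier, and the rise was 1.30 ± 0.08 (SE) (adjusted p = 1.0e-10). Ddit3, the transcription factor CHOP, ran from 12.8 to 21.9 FPKM (median 18.0) in non-carriers and from 22.3 to 33.7 FPKM (median 27.7) in carriers, again without overlap. Slc7a5, a carrier of large neutral amino acids, rose by 0.71 ± 0.07 (SE). Asns, whose promoter is shown above, ran from 0.940 to 1.80 FPKM (median 1.26) in non-carriers and from 1.35 to 4.44 FPKM (median 2.79) in carriers. Its rise was 0.92 without OGA and 0.42 with OGA. Phgdh, the first enzyme of serine synthesis, rose by 0.55 ± 0.10 (SE). The 2 lower genes were Shmt2, which moves a carbon unit from serine in mitochondria, and Vldlr, a lipoprotein receptor. Shmt2 differed by -0.31 without OGA and by -0.60 with OGA.

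Of 26 tested p53 targets and cell death genes, 13 were higher and 1 lower in the main effect. In both backgrounds 8 were higher and none lower, among them Cdkn1a, Phlda3, Gadd45g, Aen, Trp53inp1, Eda2r and Mdm2. Cdkn1a, the cell cycle inhibitor p21, ran from 5.34 to 16.5 FPKM (median 7.82) in non-carriers and from 17.4 to 41.5 FPKM (median 21.0) in carriers. These ranges do not overlap, and the rise was 1.51 without OGA and 1.08 with OGA. Gadd45g ran from 1.30 to 5.39 FPKM (median 2.89) in non-carriers and from 4.41 to 21.8 FPKM (median 6.25) in carriers, which overlap. Of 23 NRF2 and antioxidant genes, 14 were higher and 1 lower in the main effect, and 6 were higher in both backgrounds. Sod3, the secreted superoxide dismutase, ran from 13.8 to 21.9 FPKM (median 16.8) in non-carriers and from 28.7 to 72.7 FPKM (median 34.1) in carriers. Txnrd1, thioredoxin reductase, ran from 18.1 to 23.6 FPKM (median 20.3) in non-carriers and from 24.6 to 30.5 FPKM (median 27.5) in carriers. Both were free of overlap, as was the heme-degrading enzyme Hmox1, which rose by 0.88 ± 0.16 (SE). Srxn1, Gclm and Gpx1 were the others. The autophagy receptor Sqstm1 rose by 0.50 ± 0.06 (SE) and the lysosomal protease Ctsz by 0.73 ± 0.10 (SE), among 4 higher and 1 lower of 24 ubiquitin and autophagy genes. Of 30 proteasome subunits, 12 were higher and none lower in the main effect, and 2 (Psmd8 and Psmd13) were higher in both backgrounds. That count is near the 5.42% of all tested rows.

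Chaperones moved in both directions. Of 27 tested, 8 were higher and 10 lower in the main effect, against 25.5% and 16.2% of all tested rows. The median changed sign with scaling, from -0.017 as deposited to 0.019 after scaling to an equal sum. In both backgrounds Hsp90aa1, Hspb6 and Cct3, which are cytosolic, were higher. Hspa5, Canx and Dnajb9, which work in the endoplasmic reticulum, were lower. Hsp90aa1, the inducible cytosolic Hsp90, ran from 51.1 to 80.7 FPKM (median 68.3) in non-carriers and from 78.0 to 166 FPKM (median 107) in carriers. Hspa5, the reticulum chaperone BiP, ran from 219.6 to 365 FPKM (median 260.4) in non-carriers and from 175 to 234 FPKM (median 198) in carriers. The groups overlapped in both, and the main differences were 0.73 ± 0.10 (SE) and -0.39 ± 0.07 (SE). The split by compartment was described after the values were seen.

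Scn4b (chr9:45138395-45154152), a beta subunit of the cardiac sodium channel, ran from 17.2 to 32.9 FPKM (median 22.8) in non-carriers and from 1.16 to 8.96 FPKM (median 5.49) in carriers. The highest carrier lay below the lowest non-carrier, and the difference was -1.95 ± 0.15 (SE) (adjusted p = 1.0e-09), or -1.79 without the 2 hearts that stood apart. Kcnip2 (chr19:45791839-45816061), the auxiliary subunit of the transient outward potassium channel, ran from 100.0 to 127 FPKM (median 114) in non-carriers and from 28.8 to 66.0 FPKM (median 51.0) in carriers. Its difference was -1.15 without OGA and -1.29 with OGA. Adra1a, the alpha-1A adrenergic receptor, ran from 5.65 to 9.16 FPKM (median 6.96) in non-carriers and from 0.675 to 3.59 FPKM (median 2.22) in carriers, a fall of 1.38 on the log2 scale. Ctf1, the cytokine cardiotrophin 1, ran from 3.63 to 7.14 FPKM (median 5.03) in non-carriers and from 0.556 to 3.19 FPKM (median 2.24) in carriers. Ces1d, a carboxylesterase that hydrolyses lipids, ran from 68.3 to 110.4 FPKM (median 90.1) in non-carriers and from 3.97 to 39.4 FPKM (median 28.4) in carriers. In these genes too the groups were apart, and the lowest heart was replicate 6 of OGT_TG. The rule for naming the 12 falls of this set required that the groups be apart. Tfpi, the inhibitor of the tissue factor pathway of clotting, and Alox5, 5-lipoxygenase, differed by -1.13 ± 0.09 (SE) and -1.11 ± 0.08 (SE). Acsm5, an acyl-CoA synthetase, differed by -1.18 ± 0.13 (SE), and Ano10, a member of the anoctamin family, by -1.29 ± 0.12 (SE). Ttll1, a subunit of a tubulin polyglutamylase, Cep128 at the centriole and the armadillo repeat gene Armc2 complete the set. Ttll1 ran from 27.4 to 33.6 FPKM (median 29.7) in non-carriers and from 7.13 to 14.9 FPKM (median 11.7) in carriers. Armc2 differed by -1.52 without OGA and -1.80 with OGA.

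**Figure D3:**
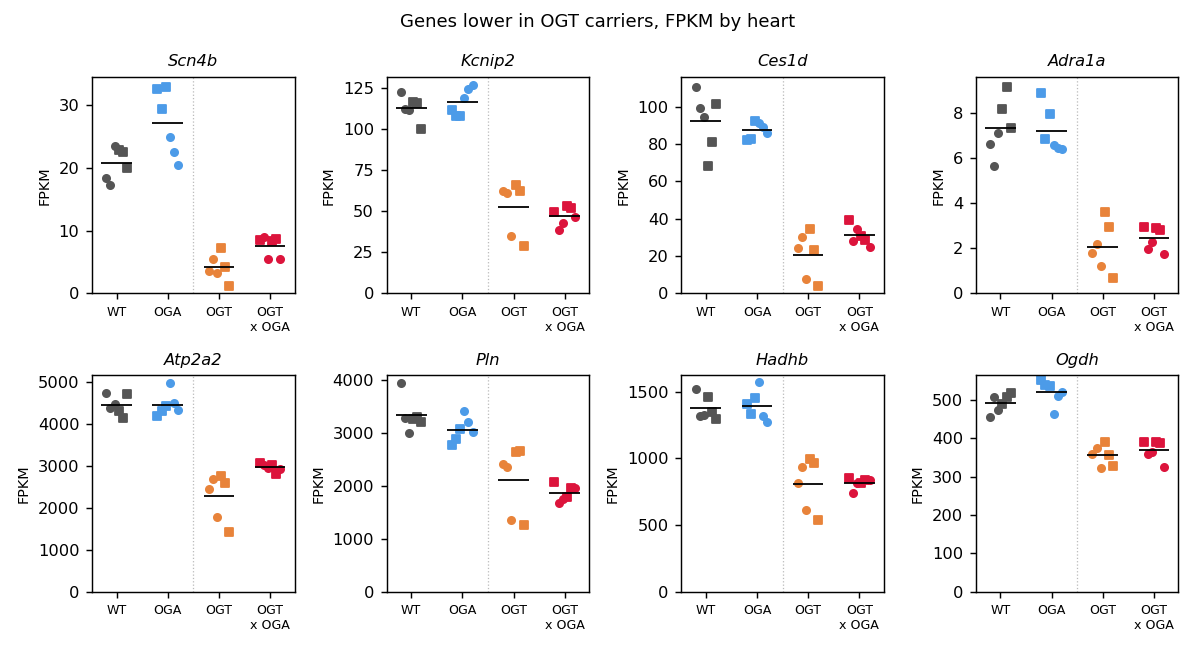
FPKM of 8 genes that fell in both backgrounds, one point per heart by genotype, circles for females and squares for males, with lines at the group means. In each panel the 12 OGT carriers, right of the dotted line, lie below the 12 non-carriers. The rule for naming Scn4b, Kcnip2, Ces1d and Adra1a required this. Scn4b carriers reach at most 8.96 FPKM and non-carriers at least 17.2 FPKM.

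Among 30 tested ion channel genes of the action potential, 4 were higher and 14 lower in the main effect (median -0.166). In both backgrounds 6 were lower, Scn4b, Kcnip2, Kcnv2, Clcn1, Abcc9 and Kcnd3, and 1 was higher. With the replicate block 3 were lower and none higher. Kcnv2, a silent potassium channel subunit, ran from 3.69 to 7.28 FPKM (median 4.42) in non-carriers and from 0.247 to 3.03 FPKM (median 1.80) in carriers. Clcn1, the muscle chloride channel, ran from 3.27 to 6.87 FPKM (median 4.54) in non-carriers and from 0.0819 to 2.61 FPKM (median 1.83) in carriers. Its fall was larger without OGA (-1.77) than with it (-0.64; interaction adjusted p = 0.013). Abcc9, the sulphonylurea receptor of the ATP-sensitive potassium channel, ran from 79.1 to 101 FPKM (median 87.3) in non-carriers and from 24.4 to 64.8 FPKM (median 56.7) in carriers. Kcnd3, a pore-forming subunit that binds Kcnip2, fell by 0.42.

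Of 25 tested calcium cycling genes, 5 were higher and 12 lower in the main effect, and in both backgrounds 6 were lower and none higher. Atp2a2 (chr5:122453513-122502225), the reticulum calcium pump SERCA2, ran from 4142 to 4971 FPKM (median 4398) in non-carriers and from 1425 to 3053 FPKM (median 2777) in carriers. Each carrier was below each non-carrier, and the difference was -1.002 without OGA and -0.59 with OGA. Pln, phospholamban, which inhibits that pump, ran from 2779.7 to 3957 FPKM (median 3209) in non-carriers and from 1265 to 2666 FPKM (median 1954) in carriers, and differed by -0.72 and -0.72. Hrc, a calcium-binding protein of the reticulum lumen, differed by -0.80 ± 0.11 (SE). Trdn, triadin of the release complex, differed by -0.40 ± 0.06 (SE). The kinase subunit Camk2d and the calcium channel subunit Cacna2d1 fell by 0.31 and 0.23. The release channel Ryr2 was called without OGA (-0.53) and had a difference of -0.10 with OGA (adjusted p = 0.42).

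Of 29 tested genes of fatty acid uptake and oxidation, 21 were lower and none higher in the main effect (median -0.332). In both backgrounds 15 were lower with all hearts (17 without replicates 3 and 6 of OGT_TG). After quantile normalization 8 were lower in both, and with the replicate block 8. Hadhb (chr5:30155248-30184593), the thiolase subunit of the mitochondrial trifunctional protein, ran from 1276 to 1570.5 FPKM (median 1342) in non-carriers and from 536 to 993 FPKM (median 829) in carriers. There was no overlap, and the differences were -0.80 without OGA and -0.77 with OGA. Acadm, the medium-chain acyl-CoA dehydrogenase, ran from 765 to 953 FPKM (median 894) in non-carriers and from 369 to 679 FPKM (median 574) in carriers. Lpl, lipoprotein lipase, ran from 1498 to 2029 FPKM (median 1699.8) in non-carriers and from 930.5 to 1417 FPKM (median 1184) in carriers. Both fell without overlap, by 0.67 and 0.54. The others were the fatty acid transporter Cd36, Acsl1, which activates long chains, the carnitine enzyme Cpt2, and Acadl, Acadvl, Hadh, Hadha, Acaa2, Decr1, Etfa, Etfdh and Acot13. Their main differences lay between -0.82 (Acaa2) and -0.23 (Acot13). None of the 15 tested regulators of the PPAR, PGC-1 and ERR families was called with OGA. Ppara was called without OGA (-0.48) and had a difference of -0.15 with OGA (adjusted p = 0.53). For Ppargc1a, the coactivator PGC-1 alpha, the values were -0.50 and -0.25 (adjusted p = 0.19).

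Of 26 TCA cycle and pyruvate oxidation genes, 22 were lower and none higher in the main effect (median -0.244), and 4 were lower in both backgrounds, Ogdh, Got1, Idh2 and Pdha1 (10 genes without replicates 3 and 6 of OGT_TG). Ogdh, a subunit of 2-oxoglutarate dehydrogenase, ran from 456 to 552 FPKM (median 509) in non-carriers and from 322 to 391 FPKM (median 361) in carriers. Those ranges were apart, and the difference was -0.47 without OGA and -0.49 with OGA. Pdha1, of pyruvate dehydrogenase, differed by -0.36 and -0.34. Of 35 complex I subunits, 16 were lower and none higher in the main effect, and the median was -0.266 without OGA and -0.007 with OGA. Without replicates 3 and 6 of OGT_TG the first median was -0.177. In both backgrounds 5 were lower (1 with the replicate block), among them Ndufa3, Ndufb4, Ndufs1 and Ndufv3. Ndufb4, whose promoter is shown above, ran from 388 to 452 FPKM (median 414) in non-carriers and from 245 to 363 FPKM (median 321) in carriers. Of 40 subunits of complexes II to V, 22 were lower and 1 higher in the main effect, with medians of -0.322 without OGA and -0.019 with OGA. Without those 2 hearts the first median was -0.209. Sdha of complex II and Cox7b were lower in both backgrounds, and Cox8a was higher. These counts, 2 and 1 of 40, are close to or below the 4.55% and 5.42% of all tested rows. Cox8a ran from 164 to 201 FPKM (median 187) in non-carriers and from 196 to 246 FPKM (median 216) in carriers. It is the liver-type form of subunit 8 of cytochrome oxidase. Its heart and muscle form Cox8b differed by -0.36 (adjusted p = 0.12) without OGA and -0.07 with OGA (adjusted p = 0.82).

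Of 24 tested glycolysis genes, 10 were higher and 7 lower in the main effect (median 0.125), and in both backgrounds Pgam1, Pfkp, Ldha, Tpi1 and Pgk1 were higher and Hk2 was lower. Pgam1, phosphoglycerate mutase 1, ran from 31.7 to 46.4 FPKM (median 37.4) in non-carriers and from 47.3 to 92.0 FPKM (median 59.1) in carriers without overlap. Ldha, the lactate dehydrogenase chain common in glycolytic tissue, ran from 319.9 to 437 FPKM (median 374) in non-carriers and from 433 to 568 FPKM (median 487) in carriers. It rose by 0.40 ± 0.04 (SE), while Ldhb, the heart chain, differed by -0.66 without OGA and -0.26 with OGA (adjusted p = 0.15). Hk2, the insulin-responsive hexokinase, ran from 66.2 to 82.9 FPKM (median 78.6) in non-carriers and from 46.5 to 69.9 FPKM (median 55.6) in carriers. Among 20 genes of branched chain amino acid and ketone catabolism, 10 were lower and 1 higher in the main effect. Auh and Hibadh were lower in both backgrounds, against 4.55% of all tested rows.

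Of 21 sarcomere and Z-disc genes, 2 were higher and 7 lower in the main effect, and 6 were higher and 4 lower after quantile normalization, so no direction holds across scalings. Tnnt2, Actc1 and Myoz2 were lower in both backgrounds with the deposited scaling. Tnnt2, cardiac troponin T, ran from 7063 to 9032 FPKM (median 8036) in non-carriers and from 5620.5 to 7380.1 FPKM (median 6550.0) in carriers, with overlap. Actc1, cardiac actin, differed by -0.21 ± 0.05 (SE), and by -0.02 (adjusted p = 0.79) after quantile normalization. Of 11 atrial markers 7 were lower in the main effect and none higher, and the reticulum peptide Sln was lower in both backgrounds, by -0.61 and -0.49. Atrial markers summed to 2342 to 3363 FPKM in non-carriers and 1639 to 2431 FPKM in carriers. Of 13 ventricular markers 8 were lower and none higher, and after quantile normalization 5 were lower and 2 higher. Of 16 tested cardiac stress genes, 13 were higher in the main effect (median 0.593). Rcan1, a calcineurin inhibitor that calcineurin itself induces, and the filamin Flnc were called in both backgrounds. The natriuretic peptide gene Nppa differed by 1.21 without OGA and by 0.03 with OGA (adjusted p = 0.96). For Nppb the values were 1.51 and -0.29 (adjusted p = 0.53).

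**Figure D4:**
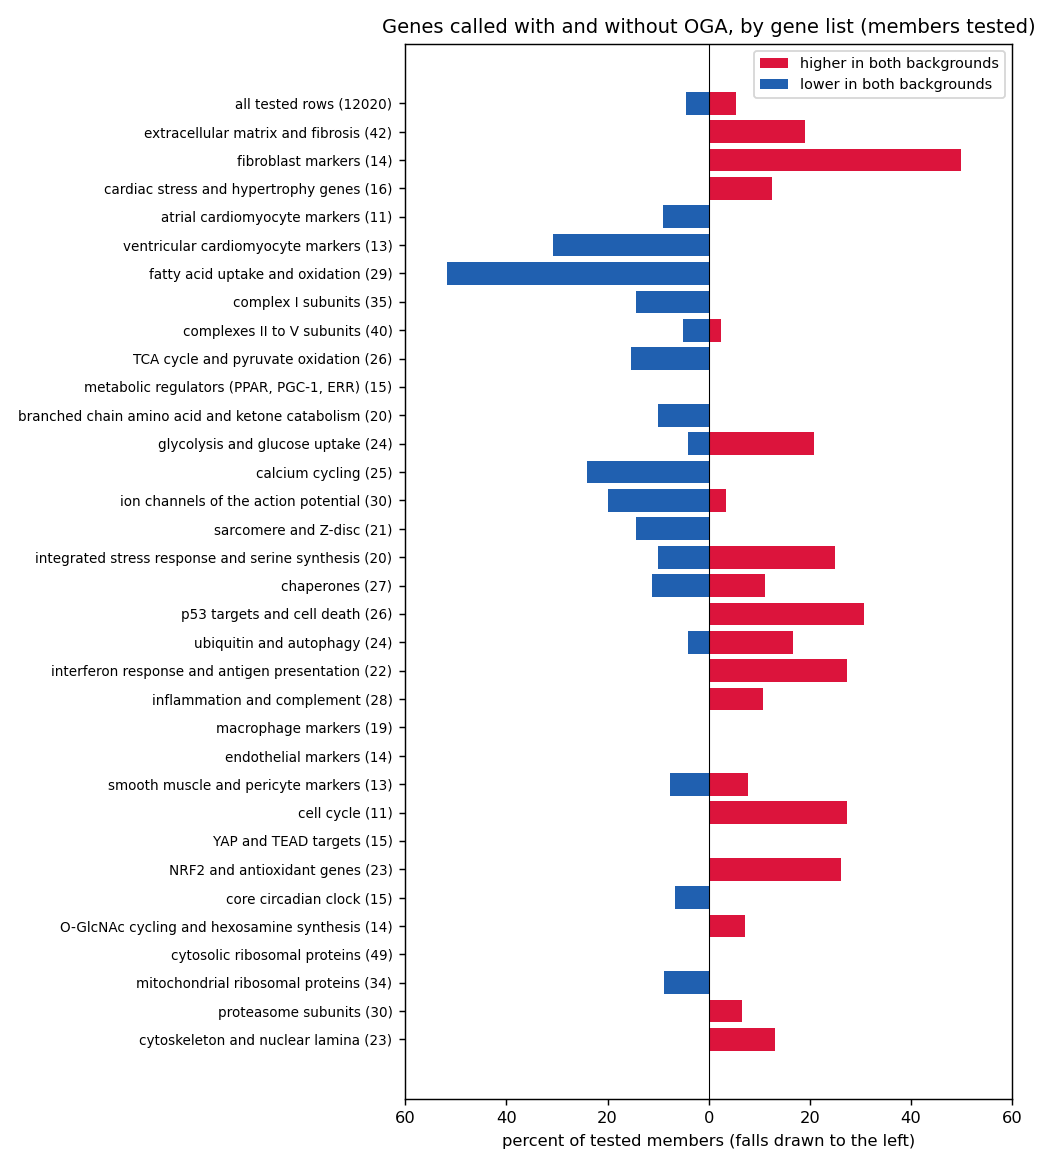
Percent of tested members of each gene list that were called higher (red, right) or lower (blue, left) in both backgrounds, with the number tested in brackets and lists under 10 tested members left out. All tested rows stand at 5.42% and 4.55%; fibroblast markers reach 7 of 14 to the right and fatty acid genes 15 of 29 to the left.

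Of 11 tested cell cycle genes 9 were higher in the main effect and 3 in both backgrounds, against 5.42% of all tested rows. These were the cyclins Ccnd1 and Ccnd2 and the inhibitor of apoptosis Birc5. With the replicate block no cell cycle gene was called in both backgrounds. Birc5 was not called without OGA when replicates 3 and 6 of OGT_TG were left out (adjusted p = 0.075). Of 23 cytoskeleton and lamina genes 17 were higher and 1 lower in the main effect, and the filamin Flnc, the tubulin Tubb4b and the adhesion protein Vcl were higher in both backgrounds with all hearts. None of these 3 was called without OGA once those 2 hearts were left out (adjusted p = 0.22, 0.19 and 0.18). Of 15 YAP and TEAD targets 10 were higher and 1 lower in the main effect and none was called in both backgrounds. Core clock genes gave 3 higher and 4 lower of 15, against 25.5% and 16.2% of all tested rows. Nr1d2, a nuclear receptor that represses clock genes, was lower in both backgrounds with all hearts. It was not called without OGA once those 2 hearts were left out (adjusted p = 0.18). Of 14 genes of O-GlcNAc cycling and hexosamine synthesis 5 were higher and 2 lower, against the same shares of all tested rows. Gfpt2, an isoform of the rate-limiting enzyme of the pathway, was called without OGA (0.75) and had a difference of 0.04 with OGA (adjusted p = 0.76). Cytosolic ribosomal proteins gave 1 higher and 14 lower of 49, but 5 and 5 after quantile normalization. Of 34 mitochondrial ribosomal proteins, Mrpl3, Mrpl17 and Mrpl24 were lower in both backgrounds, against 4.55% of all tested rows. Skeletal muscle markers summed to 45.6 to 190.2 FPKM in non-carriers, 205 to 807 FPKM in OGT_TG and 85.5 to 279.7 FPKM in OGT_TG_x_OGA_TG hearts. Acta1, the skeletal actin that is also a cardiac stress gene, made up most of that sum, at from 33.8 to 186 FPKM (median 86.9) in non-carriers and from 83.7 to 802 FPKM (median 237) in carriers. The skeletal myosins Myh1, Myh2 and Myh4 were at most 0.112, 0.0362 and 0.475 FPKM. Of the 5 adipocyte markers, 3 epicardial, 4 Schwann and neuronal, 4 skeletal muscle, 5 lymphocyte and neutrophil and 1 erythroid markers that passed the expression minimum, 2, 2, 0, 1, 1 and 0 were higher in the main effect.

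**Figure D5:**
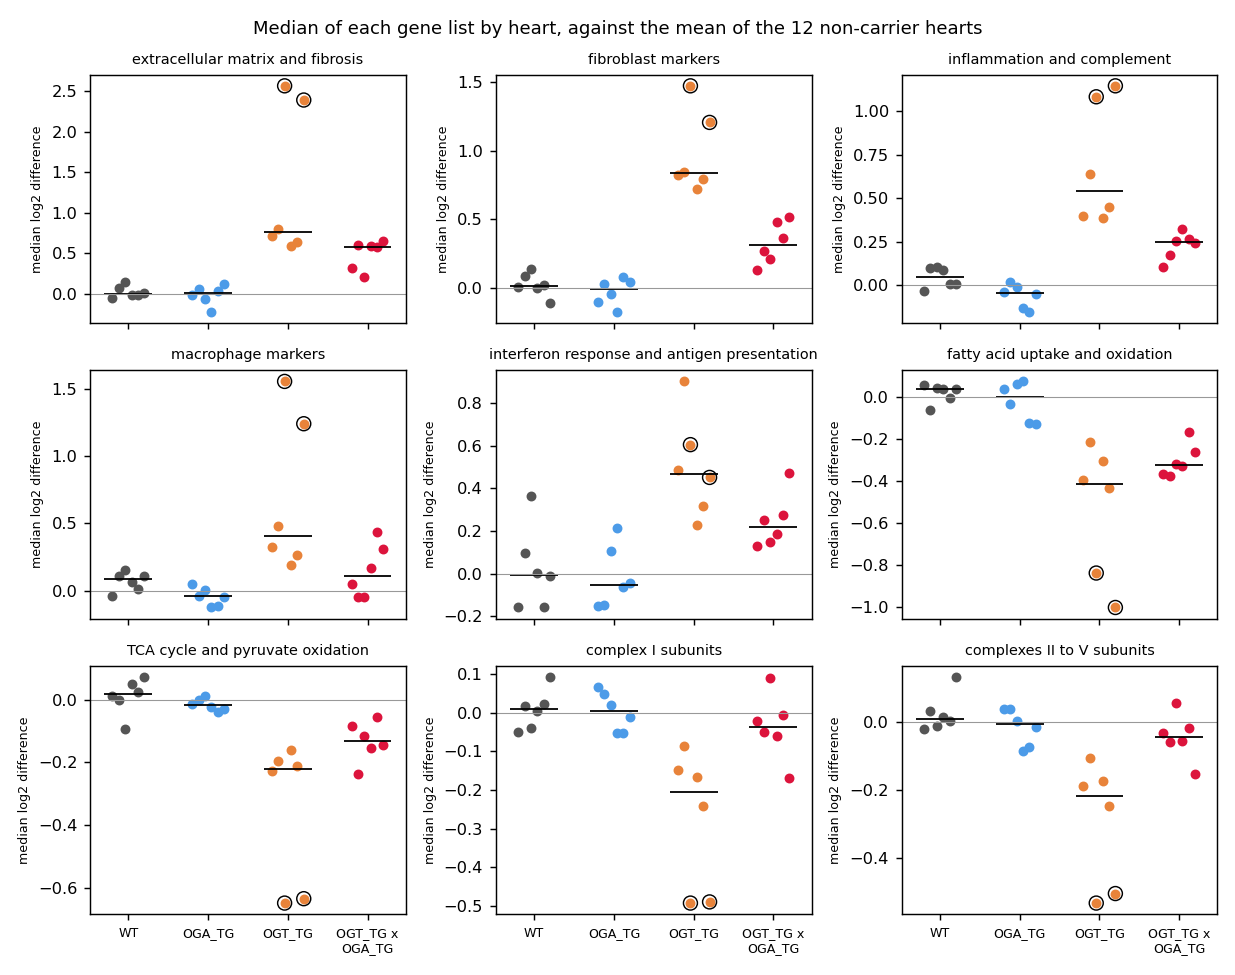
Median log2(FPKM + 1) difference of the members of 9 gene lists in each heart, taken against the mean of the 12 non-carriers, by genotype with a line at the median; rings mark replicates 3 and 6 of OGT_TG. All 12 carriers lie above all non-carriers for matrix and for inflammation genes and below them for fatty acid genes. In the other panels OGT_TG_x_OGA_TG hearts overlap with non-carriers, and for interferon genes OGT_TG hearts do so too.

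Leaving out replicates 3 and 6 of OGT_TG raised several counts in both backgrounds by over 1.5 times. The counts became 7 higher for inflammation, 8 higher for the integrated stress response, 2 higher for macrophage markers and for YAP and TEAD targets, 5 higher for the cytoskeleton, and 6 lower for complexes II to V. For branched chain amino acid catabolism 4 were then lower and 1 higher, for glycolysis 6 higher and 3 lower, and for calcium cycling 2 higher and 7 lower. Of 104 named genes called in both backgrounds, 12 lost the call without OGA when these hearts were left out. They were Flnc, Tubb4b, Vcl, Birc5, Socs3, Nr1d2, Canx, Mrpl24, Aldh1a2, Asb11, Cspg4 and Tnni2.

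The medians of the lists in single hearts show how far the carriers agreed. For matrix genes the median difference from the non-carrier mean was -0.223 to 0.151 in non-carriers, 0.591 to 0.799 in 4 of the OGT_TG hearts, 2.566 and 2.391 in replicates 3 and 6, and 0.212 to 0.654 in OGT_TG_x_OGA_TG hearts. For fatty acid genes it was -0.128 to 0.076 in non-carriers, -0.432 to -0.21 in the same 4 OGT_TG hearts, -0.836 and -1.0 in replicates 3 and 6, and -0.372 to -0.165 in OGT_TG_x_OGA_TG hearts. Both lists thus separated all 12 carriers from all 12 non-carriers, with replicates 3 and 6 farthest out. The NRF2 and cell cycle lists also put all 12 carriers above the non-carriers. Complex I gave -0.053 to 0.092 in non-carriers and -0.168 to 0.089 in OGT_TG_x_OGA_TG hearts, which overlap. Macrophage markers gave -0.125 to 0.152 in non-carriers, 1.553 and 1.239 in replicates 3 and 6 of OGT_TG, and -0.046 to 0.432 in OGT_TG_x_OGA_TG hearts.

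The OGT difference itself depended on the OGA background for 877 rows (7.3% of those tested), by the interaction term of the same model. It was lower with OGA for 660 rows (5.49%) and higher for 217 (1.81%). In 619 of them it was larger in size without OGA, and 548 of them were also called in the main effect. Comp, the cartilage oligomeric matrix protein, was 8.44 ± 2.13 FPKM (SD, n = 6) in WT, 7.77 ± 1.97 FPKM in OGA_TG, 109 ± 123 FPKM in OGT_TG and 11.8 ± 1.86 FPKM in OGT_TG_x_OGA_TG hearts. The OGT difference was 2.77 without OGA and 0.57 with OGA (interaction adjusted p = 0.041). Without replicates 3 and 6 of OGT_TG the difference without OGA was 1.73 (interaction adjusted p = 0.0049). Krt18, a simple epithelial keratin, ran from 2.19 to 10.0 FPKM (median 3.36) in OGT_TG. It ran from 0.111 to 0.473 FPKM (median 0.419) in WT and from 0.352 to 1.17 FPKM (median 0.550) in OGT_TG_x_OGA_TG hearts. It passed the expression minimum only through OGT_TG, the group where it is high, so these levels are a description with no test. Ltbp2, which lies on elastic fibres, differed by 2.92 and 0.94, and by 2.05 without OGA once those 2 hearts were left out. Ankrd1, a stretch-induced cardiac repeat protein, differed by 2.08 and 0.27 (interaction adjusted p = 9.1e-04).

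Opposite differences, each called in its background, were found for 42 rows, and the rule named 4 of them. Abat, which breaks down the transmitter GABA, rose without OGA (0.48) and fell with OGA (-0.56). It was 6.99 ± 0.604 FPKM (SD, n = 6) in WT, 10.2 ± 0.954 FPKM in OGT_TG, 9.64 ± 1.39 FPKM in OGA_TG and 6.23 ± 0.902 FPKM in OGT_TG_x_OGA_TG hearts. Aqp8, a water channel, differed by 0.69 and -0.91. Kcnj2, the inward rectifier that sets the resting potential, went the other way, at -0.50 and 0.84, and so did the plexin Plxnb3, at -0.67 and 0.46. With all hearts none of the 4 was called in the main effect. Without replicates 3 and 6 of OGT_TG, Kcnj2 differed by -0.14 without OGA (adjusted p = 0.45) and was called in the main effect at 0.35 (adjusted p = 0.0031), so its opposite differences rest on those 2 hearts. The count of 877 was unsteady. It was 515 without WT replicate 6, 523 without OGT_TG replicate 3, 526 and 564 without replicates 3 and 2 of OGT_TG_x_OGA_TG, 539 without OGA_TG replicate 5, 568 without WT replicate 2 and 1459 without OGT_TG replicate 2.

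Sex changed the OGT difference for no row at an adjusted p under 0.05 in limma (393 rows at an unadjusted p under 0.05; 48 rows adjusted with library weights). All 1199 rows called in both backgrounds had the same sign in males and in females. Those rows were selected on the same hearts of both sexes, so a shared sign was largely built in and is no support. For Cilp the main difference was 2.36 in males and 2.53 in females. With 6 carriers and 6 non-carriers of each sex, a missing call does not show equal effects.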

How the data were processed

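RNA of 24 whole mouse hearts was sequenced. The authors deposited 1 table of FPKM values, with 19664 rows. Per the submitters' processing notes, TopHat, StringTie and Cuffdiff 2.2.1 were among the tools and mm10 was the build; how ambiguous fragments were assigned is not given in the sources used here. FPKM carry no counts, so no count model was used. The 12020 rows with at least 1 FPKM in at least 6 hearts were tested as log2(FPKM + 1) with limma 3.58.1 (R 4.3.3; two-sided, trended variance, 4 genotype means and sex), with Benjamini-Hochberg adjustment over all tested rows. 4 rows with missing values were left out. Named genes were the transgene rows, Ogt and Mgea5, the 12 rises and 12 falls with the largest smaller difference of both backgrounds and no overlap of hearts, up to 4 members per list called in both backgrounds, and up to 4 genes with opposite signs or the largest called interaction. Of 39 gene lists, 852 members were found and 790 tested. Members and lists were chosen with earlier results of these data known. Positions are from GENCODE M21 (GRCm38), matched by symbol, and promoters from RefSeq (GRCm38.p6). Alternatives were other scalings, no expression minimum, library weights, a stricter threshold, single sexes, a replicate block and leaving out hearts; leaving out replicates 3 and 6 of OGT_TG was added after seeing the data. Nothing says whether hearts of a genotype came from separate litters, so p-values measure the spread between these hearts. The values of some genes are not reported here.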

Additional observations from a re-analysis of the deposited data

Results flagged for a closer look

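Among 452 groups of 6 hearts, formed by the named genes in each genotype, 31 held a heart whose gap to the nearest other heart was too wide for the range of its group by Dixon's test. Chance gives about 1 in 20 groups, and no explanation is offered. In WT hearts, Adamtsl2 was 5.84 FPKM in replicate 3 and 2.17 to 3.04 FPKM in the others. Canx was 129.9 FPKM in replicate 1 and 104 to 113 FPKM in the others. Cfb was 3.28 FPKM in replicate 6 and 2.45 to 2.73 FPKM in the others. Comp was 12.7 FPKM in replicate 2 and 6.70 to 7.89 FPKM in the others. Ctsd was 589 FPKM in replicate 1 and 643 to 674 FPKM in the others. Idh2 was 1104 FPKM in replicate 1 and 1265 to 1361 FPKM in the others. Irf7 was 11.9 FPKM in replicate 3 and 4.94 to 6.61 FPKM in the others. Pln was 3957 FPKM in replicate 1 and 3006 to 3297 FPKM in the others. Tfpi was 63.7 FPKM in replicate 1 and 47.6 to 53.03 FPKM in the others. Wisp2 was 1.45 FPKM in replicate 1 and 3.28 to 4.24 FPKM in the others. In OGA_TG hearts, Adamtsl2 was 7.76 FPKM in replicate 6 and 3.04 to 3.91 FPKM in the others. Asb11 was 91.5 FPKM in replicate 6 and 73.3 to 80.0 FPKM in the others. Ccdc68 was 2.90 FPKM in replicate 5 and 1.09 to 1.61 FPKM in the others. Ccnd1 was 10.6 FPKM in replicate 4 and 15.8 to 17.7 FPKM in the others. Gclm was 10.6 FPKM in replicate 3 and 8.44 to 8.73 FPKM in the others. Hspa5 was 365 FPKM in replicate 4 and 229 to 260.3 FPKM in the others. OGT was 1.11 FPKM in replicate 1 and 0.356 to 0.577 FPKM in the others. In OGT_TG hearts, Aldh1a2 was 7.41 FPKM in replicate 3 and 2.38 to 3.50 FPKM in the others. Mrpl17 was 4.08 FPKM in replicate 1 and 4.46 to 4.64 FPKM in the others. OGA was 0.0125 FPKM in replicate 2 and 0 FPKM in the others. Oasl2 was 6.31 FPKM in replicate 4 and 8.89 to 9.77 FPKM in the others. In OGT_TG_x_OGA_TG hearts, Abat was 8.02 FPKM in replicate 1 and 5.67 to 6.20 FPKM in the others. Adamtsl2 was 22.7 FPKM in replicate 2 and 8.53 to 13.8 FPKM in the others. Hadhb was 739 FPKM in replicate 2 and 816 to 852 FPKM in the others. Hsp90aa1 was 156 FPKM in replicate 1 and 78.0 to 96.9 FPKM in the others. Mrpl17 was 4.57 FPKM in replicate 4 and 3.62 to 3.90 FPKM in the others. Ndufv3 was 383 FPKM in replicate 6 and 459 to 493 FPKM in the others. Sdc4 was 22.3 FPKM in replicate 6 and 17.4 to 19.0 FPKM in the others. Sdha was 539.8 FPKM in replicate 2 and 593 to 623 FPKM in the others. Slc7a5 was 1.72 FPKM in replicate 5 and 2.39 to 2.77 FPKM in the others. Ttll1 was 8.31 FPKM in replicate 6 and 12.5 to 14.9 FPKM in the others.

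The OGT difference of 21 named genes differed between the OGA backgrounds, by the limma interaction term at an adjusted p under 0.05. Some of these genes were named for a large called interaction or for opposite signs called in each background. For those genes the call was built in, so the count of 21 is a description and no independent support. Over all tested rows the interaction was called for 877 of 12020 (7.3%). The values are the difference with OGA minus the difference without OGA on the log2 scale. Lower with OGA were Comp (-2.20), Krt18 (-1.98), Ltbp2 (-1.97), Wisp2 (-1.97), Thbs4 (-1.93) and Cilp (-1.67). Next came Aqp8 (-1.60), Mfap5 (-1.17), Abat (-1.04), Rcan1 (-0.86), Serping1 (-0.75) and Cela1 (-0.63). Next came Masp1 (-0.59), Ogt (-0.52), Psmd8 (-0.34) and Mrpl17 (-0.24). Higher with OGA were Mgea5 (0.57), Clcn1 (1.13), Plxnb3 (1.13), Kcnj2 (1.34) and OGT (2.13). A value below 0 means a smaller rise, a larger fall or an opposite direction with OGA. The OGT row was also higher in OGT_TG_x_OGA_TG than in OGT_TG hearts, and its part in these differences was not tested. Without replicates 3 and 6 of OGT_TG, Wisp2 (-1.11, adjusted p = 0.062), Mrpl17 (adjusted p = 0.1) and Mgea5 (adjusted p = 0.094) were not called. Comp was then -1.16, Ltbp2 -1.11, Thbs4 -1.26, Clcn1 0.75, Mfap5 -0.66 and Rcan1 -0.48. Krt18 passed the expression minimum only through OGT_TG, and Cela1 and the OGT row only through carriers. The calls of these 3 are not read as results.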

How the results depend on the processing

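Of 4391 main effect values of named genes under the alternatives, 4369 kept their direction and side of the threshold, 15 lost and 5 gained a call and 2 reversed; the 2712 of these values that leave out 1 heart hold 2710 unchanged calls and 2 gained ones. The reversals were Aqp8 (0.104) and Plxnb3 (0.0442) in the main effect of females only. Most named genes were picked for calls made in these same hearts. Their kept calls were thus largely built in and are no independent support. Calls in both backgrounds and interactions of single genes were rerun only without replicates 3 and 6 of OGT_TG. Actc1 was not called after quantile normalization (-0.02) or, at an adjusted p of 0.051, without the expression minimum. Counts of rows moved more. Without 1 heart at a time, the main effect gave 2745 to 3216 higher and 1796 to 2035 lower rows, the difference without OGA 2461 to 3093 and 1153 to 1558, with OGA 784 to 1184 and 898 to 1343, both backgrounds 525 to 738 and 450 to 568, the interaction 515 to 1459, and OGT by sex 0 to 2. Quantile normalization gave 1955 higher and 2208 lower rows without OGA. Library weights gave 1767 and 2107 with OGA, 1005 higher in both, 2085 interactions and 48 by sex. An adjusted p under 0.01 gave 1951 and 893 without OGA, 500 and 617 with OGA, 299 and 268 in both, and 146 interactions. Males only gave 1455 and 932 in the main effect, 1336 and 725 without OGA, 177 and 183 with OGA, 91 and 90 in both, and 1 interaction. Females only gave 1502 and 935, 1008 and 401, 309 and 349, 163 and 130, and 0 interactions, in the same order; single sexes hold 12 hearts each. Without replicates 3 and 6 of OGT_TG there were 929 lower rows without OGA, 1558 higher with OGA and 557 interactions. The labels do not say what the title numbers mark. Of 10 correlations of same-numbered WT and OGT_TG hearts, 7 were over 0.1 and 3 were not (-0.022 to 0.346). Of the 3, that of number 2169 stood at 0.1. By this cutoff the hearts were not treated as pairs, which does not show that they are independent. A replicate block with a common correlation of 0.265 gave 522 and 640 with OGA, 376 higher in both and 423 interactions. In both backgrounds it left 3 matrix, 3 fibroblast, 2 interferon, 1 inflammation and 0 cell cycle genes higher and 8 fatty acid, 3 ion channel and 1 complex I genes lower. A fixed replicate block over WT and OGT_TG gave 2851 and 1356 without OGA. Of the 1199 rows called in both backgrounds, 1096 were called with median-of-ratios scaling, 1060 with equal sums, 999 with quantiles, 1016 when each background was fitted alone and 706 with the common block. No sex value exists for fits without sex, of 1 sex, additive, of 1 background or with the block. FPKM give no fragment counts, so the depth behind a low value is unknown and genes near 1 FPKM are the least certain.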

Other observations

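The genes in these paragraphs were chosen after their values were seen. Eef1a1, the elongation factor form that adult heart muscle largely replaces with Eef1a2, was 683 ± 47.1 FPKM (SD, n = 6) in WT, 700.0 ± 54.5 FPKM in OGA_TG, 1367 ± 124 FPKM in OGT_TG and 1277 ± 162 FPKM in OGT_TG_x_OGA_TG hearts. All 12 carriers lay above all 12 non-carriers. Rpl3 and Rpl3l, 2 forms of a ribosomal protein of which the second is found mainly in striated muscle, differed in opposite directions. Rpl3 had a main difference of 0.49 ± 0.07 (SE) (adjusted p = 7.4e-06). Rpl3l had -1.15 ± 0.21 (SE) (adjusted p = 1.2e-04), with -1.80 without OGA and -0.51 with OGA (adjusted p = 0.24). Tac1, the precursor of substance P, was low throughout, at 2.03 ± 0.451 FPKM in WT, 0.438 ± 0.280 FPKM in OGA_TG, 6.16 ± 1.18 FPKM in OGT_TG and 2.55 ± 0.455 FPKM in OGT_TG_x_OGA_TG hearts. Its OGT difference was 1.24 without OGA and 1.31 with OGA, from different starting levels.

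Genes of cilia and microtubules were found in both directions. Agtpbp1, which trims glutamate chains from tubulin, ran from 32.2 to 46.6 FPKM (median 38.6) in non-carriers and from 18.4 to 23.8 FPKM (median 20.4) in carriers. Ift81, of the intraflagellar transport complex, ran from 21.8 to 29.5 FPKM (median 26.1) in non-carriers and from 8.19 to 16.7 FPKM (median 14.2) in carriers. Hook1, a linker to microtubules, had a main difference of -0.78 ± 0.08 (SE). In these 3 genes all carriers lay below all non-carriers. Mtap1a, a microtubule-associated protein, ran from 0.978 to 1.39 FPKM (median 1.16) in non-carriers and from 2.49 to 17.9 FPKM (median 3.85) in carriers, all above the non-carriers. These genes are not a list, and no enrichment was tested.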
